A study of Mus musculus with 2 samples.

Results

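The cells described here are gingival neutrophils in which transcripts of Csf3r, the receptor for granulocyte colony-stimulating factor (G-CSF), and Cxcr2, the receptor for the CXC chemokines that attract neutrophils, outnumber those of a pair of other transcript groups. They were chosen cell by cell from unique molecular identifier (UMI) counts. A kept cell had at least 500 UMIs, at least 250 genes and at most 10% mitochondrial UMIs. A neutrophil had at least 3% of its UMIs from S100a8 and S100a9, at most 1 UMI in all from Fn1, Vcan, Ccr2, C1qa, C1qb and Cd79a, under 1% from Camp, Ltf and Ngp, at most 1 UMI of Siglecf, at most 4 UMIs from Ifit1, Ifit3, Rsad2 and Isg15 together, and at most 1 UMI of Rhov. A neutrophil was a member if Csf3r and Cxcr2 together had more UMIs than Cxcl2 and Cxcl3 together and more than Retnlg and Mmp8 together. The rule found 761 of the 21268 kept cells, 199 in the Tet2-/- library and 562 in the Tet2+/+ library.

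Both libraries hold CD11b+ cells of mouse gingiva, read with a droplet assay that counts the 3′ ends of transcripts. The recipients carried 10% Tet2-/- marrow (10% Tet2-/- BMT) in one group and 10% Tet2+/+ marrow (10% Tet2+/+ BMT) in the other, and both groups had ligature-induced periodontitis (LIP) for 5 days, starting 12 weeks after the transplant. Tet2 encodes a DNA demethylating enzyme that is often lost in clonal haematopoiesis. Both sample titles name a CD45.2+CD11b+ sort, but by the design text only the Tet2-/- library was sorted that way and the Tet2+/+ library was sorted as CD45+CD11b+. The sources used here do not give strain, age, number of animals or pooling, and no file used here gives the donor of each cell. A Tet2-/- or Tet2+/+ cell or member below is therefore a cell of that library, and its own genotype is not known. With 1 library per group there is no spread between samples and no test. Every interval is a 95% interval that covers counting error only, and a gene is called higher or lower by size alone.

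The libraries held 93919724 UMIs for Tet2-/- BMT and 100782700 for Tet2+/+ BMT, and 9596 and 11672 cells were kept. Members had a median of 3115 UMIs in the Tet2-/- library and 3238.5 in the Tet2+/+ library, with 1152 and 1193 genes. No member barcode was shared by the libraries. Xist, transcribed from an inactive X chromosome, was found without any Y-linked transcript in 35 Tet2-/- and 0 Tet2+/+ members. Y-linked transcripts without Xist were found in 9 Tet2-/- and 272 Tet2+/+ members. Transplant group, sex of the cells and possibly the sorting gate therefore differ together between the libraries and cannot be told apart. Tet2 itself was at 172 CPM (the usual scaled count, UMIs of a gene over all UMIs summed in the same cells) in Tet2-/- members and 146 CPM in Tet2+/+ members once cells of mixed profile, described below, were left out, a ratio of 1.18 (0.933–1.49). A 3′ count does not show whether an upstream part of the gene is deleted, and the deleted part is not given.

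G-CSF drives the production, release and survival of neutrophils, and its receptor signals through JAK2 and STAT3, with SOCS3 as the feedback inhibitor. CXCR2 is the G protein-coupled receptor through which neutrophils leave the marrow and follow CXCL1, CXCL2 and related ligands into inflamed tissue, and RGS proteins and arrestins switch it off. Neutrophils that have entered a tissue make chemokines such as CXCL2 themselves, while RETNLG and MMP8, a secreted resistin-like protein and the collagenase of neutrophil granules, are typical of cells closer to release from the marrow.

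Csf3r (ENSMUSG00000028859) spans 126024550 to 126044440 on the plus strand of chromosome 4 in mm10. Cxcr2 (ENSMUSG00000026180) spans 74153989 to 74161246 on the plus strand of chromosome 1. Fgl2 (ENSMUSG00000039899), a fibrinogen-like protein with immune-regulating and prothrombinase forms, spans 21372642 to 21378374 on the plus strand of chromosome 5. Steap4 (ENSMUSG00000012428), a metalloreductase of iron and copper, spans 7960457 to 7982213 on the plus strand of the same chromosome. Slc40a1 (ENSMUSG00000025993), the iron exporter ferroportin, spans 45908068 to 45926523 on the minus strand of chromosome 1. These 5 genes carry the label of the state, so the sequence just upstream of their starts is shown for the 4 that the promoter table holds. It was read from RefSeq for GRCm38.p6, plus strand, up to the base before the annotated gene. Capitals mark a match to the PU.1 core GAGGAA, here on the opposite strand, or to the C/EBP motif TTGCNNAA. PU.1 and the C/EBP proteins drive many myeloid genes.
Csf3r, chr4:126024409-126024549: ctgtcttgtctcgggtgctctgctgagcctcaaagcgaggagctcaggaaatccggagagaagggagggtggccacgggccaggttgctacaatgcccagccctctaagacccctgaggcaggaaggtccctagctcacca
Cxcr2, chr1:74153744-74153988: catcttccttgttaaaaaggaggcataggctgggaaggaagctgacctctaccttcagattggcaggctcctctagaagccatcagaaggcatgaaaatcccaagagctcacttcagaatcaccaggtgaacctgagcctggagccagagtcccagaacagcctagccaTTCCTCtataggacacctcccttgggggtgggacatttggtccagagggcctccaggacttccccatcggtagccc
Fgl2, chr5:21372423-21372641: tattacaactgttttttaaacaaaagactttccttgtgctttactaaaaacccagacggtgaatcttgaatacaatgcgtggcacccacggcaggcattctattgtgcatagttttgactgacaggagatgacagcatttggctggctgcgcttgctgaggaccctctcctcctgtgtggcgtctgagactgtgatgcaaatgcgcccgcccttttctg
Steap4, chr5:7960222-7960456: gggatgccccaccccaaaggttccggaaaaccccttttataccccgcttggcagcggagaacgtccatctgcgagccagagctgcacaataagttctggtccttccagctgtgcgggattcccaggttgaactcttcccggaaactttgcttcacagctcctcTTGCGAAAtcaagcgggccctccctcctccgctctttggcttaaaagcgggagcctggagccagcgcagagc
Searched on both strands of the 250 bases before the RefSeq start, the PU.1 core was found in Cxcr2 and in Csf3r, where it lies in bases that fall inside the annotated gene and are not shown. The C/EBP motif was found in Steap4. No match of either motif overlapped another. The PU.1 core was present in 23.3% and the C/EBP motif in 9.56% of 32851 mouse promoters of the same length, so a match is common and describes letters, not binding.

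The primary granule transcripts of 10 members go against the label of mature neutrophils. In 6 Tet2-/- and 4 Tet2+/+ members, Elane, Mpo, Prtn3 and Ctsg, the primary granule proteases and peroxidase made by promyelocytes, gave 2.92–4.83% and 3.08–4.68% of the UMIs. In the member with the next highest share they gave 0.0596% in the Tet2-/- library and 0.366% in the Tet2+/+ library. These cells were also the deepest members, with 25222–35948 UMIs in the Tet2-/- library and 25109–35464 in the Tet2+/+ library. A further 1 Tet2-/- and 5 Tet2+/+ members had at least 1% of their UMIs from the marker list of another lineage, namely 1 dendritic cell profile in the Tet2-/- library and 2 NK, 2 erythroid and 1 dendritic cell profile in the Tet2+/+ library. Together these cells of mixed profile were 7 of 199 and 9 of 562 members, but held 24.9% of the Tet2-/- and 7.79% of the Tet2+/+ member UMIs. They held 99.7% of the 6971 primary granule UMIs of the Tet2-/- members and 97.4% of the 4544 of the Tet2+/+ members.

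**Figure D1:**
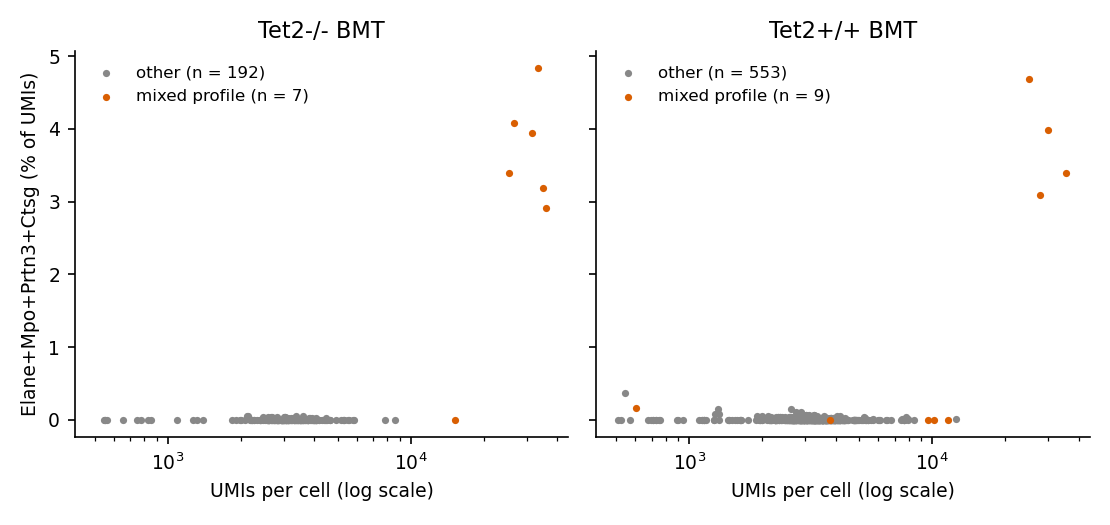
Each point is 1 member cell of the Tet2-/- (left) or Tet2+/+ (right) library, placed by its UMIs (log scale) and by the share of those UMIs from Elane, Mpo, Prtn3 and Ctsg. Orange points are the 7 and 9 cells of mixed profile, of which the 6 and 4 primary granule cells stand apart at high depth and at 2.92–4.83% and 3.08–4.68%.

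Levels below are therefore sums over the other 192 Tet2-/- and 553 Tet2+/+ members, with the neutrophil states they are compared with trimmed in the same way, a choice made after seeing the data. In these cells the summed markers of 10 macrophage genes were at 741 and 822 CPM, of 10 monocyte genes at 333 and 347 CPM, of 10 dendritic cell genes at 410 and 610 CPM and of 9 B cell genes at 184 and 112 CPM in the Tet2-/- and the Tet2+/+ library. Their part in the differences below was not tested. The markers of T cells, NK cells, eosinophils, platelets, erythroid, epithelial, fibroblast and endothelial cells stayed between 1.64 and 75.5 CPM a list, and those of mast cells and basophils at 0 and 2.19 CPM. The 7 osteoclast genes were at 1534 and 1280 CPM, of which Mmp9, also a neutrophil transcript, gave 1522 and 1251 CPM, while Ocstamp, Calcr and Atp6v0d2 had 0 UMIs in both libraries. The 12 genes of immature neutrophils were at 696 and 961 CPM. The rule capped some genes of the macrophage, monocyte, B cell, eosinophil and immature neutrophil lists. The trim then removed cells rich in primary granule genes or in any of these lists except the osteoclast and immature neutrophil ones. Low levels here are thus partly set by the choice of cells. Of the epithelial, fibroblast and endothelial markers, Krt5, Krt14, Pdgfra and Cdh5 each had 0 UMIs in both libraries. Of the S100a8 and S100a9 UMIs that define the gate, members held less than the Retnlg-dominated cells. The pair made up 11.6% of the UMIs of Tet2-/- members, against 28.3% in the Retnlg-dominated cells of that library, and 11.9% of those of Tet2+/+ members, against 30.2%.

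The state was a smaller share of the Tet2-/- library. Members were 2.07% (1.80–2.38) of kept Tet2-/- cells and 4.81% (4.43–5.22) of kept Tet2+/+ cells, a ratio of 0.431. Of the cells that passed the neutrophil gate, 2847 in the Tet2-/- and 3639 in the Tet2+/+ library, members were 6.99% (6.08–7.99) and 15.4% (14.3–16.7). Cells dominated by Cxcl2 and Cxcl3 took 50.2% (48.3–52.0) of gated Tet2-/- neutrophils and 40.8% (39.2–42.4) of gated Tet2+/+ neutrophils, while cells dominated by Retnlg and Mmp8 took 41.2% and 41.1%. Thus the shares of members and Cxcl2-dominated cells differed beyond counting error, while the Retnlg-dominated shares did not. Spread between samples is not covered by these intervals. All states are parts of the same gate, and the rule sets their transcripts against each other. With nearly equal Retnlg-dominated shares, a lower member share thus forces a higher Cxcl2-dominated share, and the opposite directions are not separate results. Of kept cells, Cxcl2-dominated cells were 14.9% (14.2–15.6) in the Tet2-/- and 12.7% (12.1–13.3) in the Tet2+/+ library. After every cell was thinned to 1000 UMIs, leaving out 417 Tet2-/- and 629 Tet2+/+ shallower cells, members were 5.66% and 14.8% of gated neutrophils. The fixed UMI caps of the gate exclude fewer cells at that depth. The thinned gate held 3972 Tet2-/- and 5118 Tet2+/+ cells, with 225 and 756 members, so these shares are not of the same cells. With each condition of the gate dropped in turn, the share of members was 6.0–7.48% in the Tet2-/- library and 12.9–17.3% in the Tet2+/+ library.

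**Figure D2:**
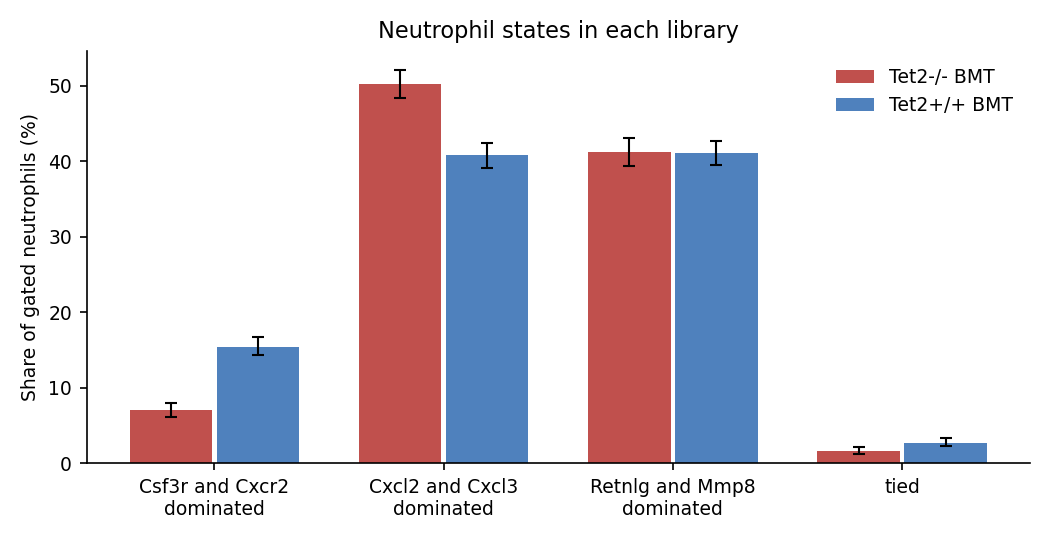
Bars give the share of gated neutrophils (%) in each state, for Tet2-/- BMT (left bar of each pair) and Tet2+/+ BMT (right bar), with exact binomial 95% intervals as error bars. Csf3r and Cxcr2 dominated cells are 6.99% and 15.4%, and tied cells 1.65% and 2.72%.

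The values that chose these members were a median of 14 Csf3r and Cxcr2 UMIs per Tet2-/- cell and 16 per Tet2+/+ cell, with middle ranges of 11–20 and 11–21. Cxcl2 and Cxcl3 together had a median of 4 UMIs in Tet2-/- and 3 in Tet2+/+ members, and Retnlg and Mmp8 a median of 4 in both libraries. In the 20 Tet2-/- members that were ahead by only 1 UMI, Csf3r was at 2865 CPM and Cxcr2 at 1719 CPM, against 2572 and 1851 CPM in the 23 unmixed cells of that library whose sums were equal and which were left out. In the 50 Tet2+/+ members ahead by 1 UMI, Csf3r was at 2102 CPM and Cxcr2 at 1573 CPM, against 1673 and 1163 CPM in the 69 unmixed cells with equal sums. The 65 Tet2-/- and 211 Tet2+/+ members ahead by 10 or more UMIs had 3600 and 3545 CPM of Csf3r.

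Among the 192 and 553 members of unmixed profile, Csf3r was found in 192 Tet2-/- and 546 Tet2+/+ cells and Cxcr2 in 183 and 537. Csf3r was ahead of Cxcr2 in 76.0% of Tet2-/- and 65.6% of Tet2+/+ members, behind it in 15.6% and 26.4%, and equal in the rest. Csf3r was at 3059 CPM (2922–3201) in Tet2-/- and 2881 CPM (2804–2960) in Tet2+/+ members, and Cxcr2 at 1754 CPM (1650–1862) and 2084 CPM (2018–2151). The ratio of the libraries was thus 1.06 (1.01–1.12) for Csf3r and 0.841 (0.786–0.901) for Cxcr2, both inside 1.5-fold, on levels that the rule itself used.

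The other 3 label genes were not used by the rule. Fgl2 was found in 86.5% (80.8–91.0) of Tet2-/- and 84.4% (81.2–87.4) of Tet2+/+ members, and its level was 997 CPM (920–1080) and 953 CPM (908–999). It was the one of these 3 found in most members. Slc40a1 was found in 35.4% (28.7–42.6) of Tet2-/- and 44.1% (39.9–48.4) of Tet2+/+ members, at 185 CPM (153–223) and 259 CPM (236–283), a ratio of 0.716 (0.578–0.881). Steap4 was found in 10.4% (6.48–15.6) of Tet2-/- and 31.8% (28.0–35.9) of Tet2+/+ members. Its level was 57.4 CPM (40.0–79.8) from 35 UMIs in Tet2-/- members and 216 CPM (195–238) from 394 UMIs in Tet2+/+ members, a ratio of 0.266 (0.183–0.376). Steap4 was thus a marker of a minority of members in both libraries and mostly of the Tet2+/+ ones, and all 3 genes together were found in 4.17% of Tet2-/- and 14.6% of Tet2+/+ members.

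Detection in B cells was taken as a floor under these shares. Doublets were not removed, and single B cells held up to 30 (Tet2-/-) and 20 (Tet2+/+) Fgl2 UMIs. Whether free RNA or doublets gave the UMIs in B cells was not tested. B cells of the same libraries, with a median of 7017.5 UMIs for Tet2-/- and 5797 UMIs for Tet2+/+, against 3083 and 3228 in these members, had a Fgl2 UMI in 33.8% and 28.5%, a Slc40a1 UMI in 4.82% and 6.55% and a Steap4 UMI in 1.27% and 4.78%. With every cell thinned to 1000 UMIs, Fgl2 was found in 55.3% of Tet2-/- and 54.9% of Tet2+/+ members, mixed cells included, against 6.87% and 6.75% of B cells. Steap4 was found in 5.26% and 17.9% of thinned members, against 0.254% and 1.07% of thinned B cells. All 3 transcripts were thus found more often in members than in B cells at matched depth. In members with more Csf3r than Cxcr2 UMIs, Fgl2 was at 1005 CPM in the Tet2-/- and 1026 CPM in the Tet2+/+ library, against 1016 and 833 CPM in members with more Cxcr2.

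**Figure D3:**
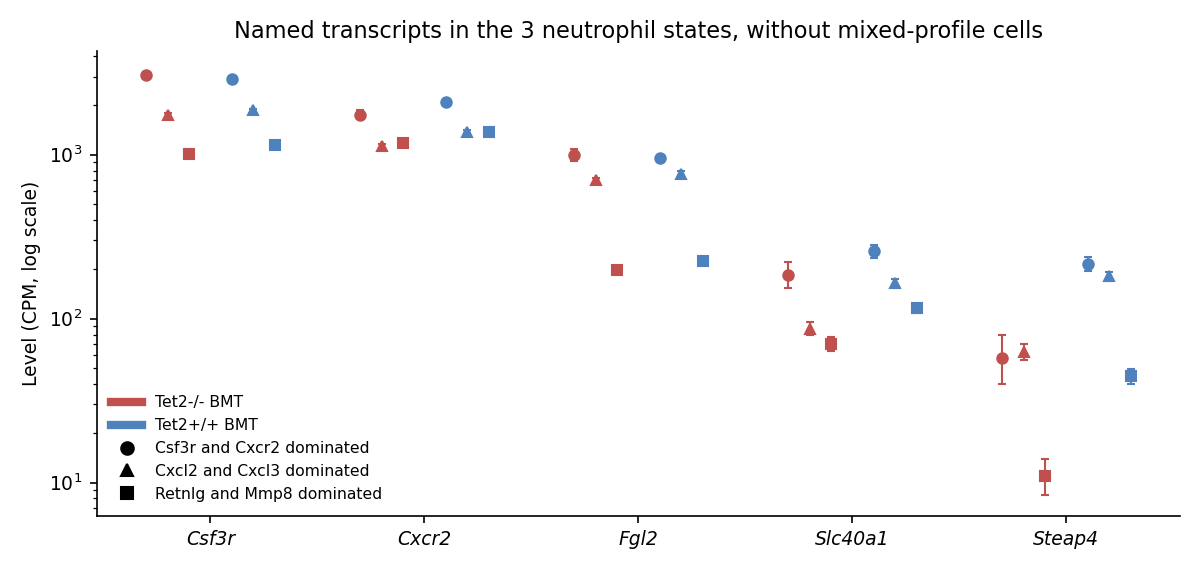
Levels of the 5 label genes (CPM, log scale) in Tet2-/- (red) and Tet2+/+ (blue) cells of the 3 neutrophil states, with exact Poisson 95% intervals. Circles are Csf3r and Cxcr2 dominated cells. Steap4 is the gene whose libraries lie furthest apart, at 57.4 and 216 CPM in members.

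By CPM, 13 of 18 cytokine receptor, 17 of 18 immediate early, 9 of 14 NF-kB and 9 of 14 survival genes outside the rule were higher in members than in the Retnlg-dominated cells of the same library, and 7 of 20 tertiary granule and adhesion genes were lower. Of 2401 genes with at least 50 CPM in either side and 100 UMIs over both, 703 (29.3%) were at least 1.5-fold higher in members in both libraries and 131 (5.46%) at least 1.5-fold lower. Over all members of both states, 741 (30.4%) of 2438 genes were higher and 140 (5.74%) lower. This split depends on the scaling, because the median gene was 0.41 (Tet2-/-) and 0.44 (Tet2+/+) higher on the log2 scale in members. The trimmed mean of M values (TMM) turned the counts over all members into 199 higher and 567 lower, and median-of-ratios scaling into 269 and 418, so the changes below are to be read against that shift. Without mixed cells, TMM gave 128 higher and 404 lower. All log2 ratios are of CPM plus 10, which understates changes of low genes.

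Of the label genes, Fgl2 was 5.01-fold (4.54–5.53) higher in Tet2-/- members and 4.21-fold (3.94–4.51) higher in Tet2+/+ members than in Retnlg-dominated cells. Steap4 was 5.24-fold (3.37–8.02) and 4.83-fold (4.17–5.60) higher, at 57.4 against 11.0 CPM in the Tet2-/- and 216 against 44.7 CPM in the Tet2+/+ library. Slc40a1 was 2.66-fold and 2.24-fold higher. With TMM, Fgl2 stayed higher, at log2 ratios of 1.68 and 1.38. Csf3r, 3.03-fold and 2.51-fold higher, and Cxcr2, 1.49-fold and 1.5-fold higher, chose the members, so their ratios describe that choice. Those of Cxcr2 turned to -0.03 and -0.08 on the log2 scale with TMM.

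The genes furthest above the Retnlg-dominated cells in both libraries began with Clec4n, which encodes the fungal receptor dectin-2. It was at 195 CPM in Tet2-/- members, against 19.2 CPM, and at 226 CPM in Tet2+/+ members, against 17.5 CPM, or 10.2-fold and 12.9-fold higher. Igfbp6, an insulin-like growth factor binding protein, was 10.7-fold and 12.0-fold higher, and Csf1, the growth factor of macrophages and osteoclasts, 8.31-fold and 10.2-fold. Ppp1r15a, which restarts translation after stress, was 5.97-fold and 6.13-fold higher, and the stress-induced factor Atf3 6.04-fold and 5.01-fold. Itga4, the integrin chain that binds VCAM-1, was 6.01-fold and 4.88-fold higher. Transglutaminase Tgm2 (4.89-fold and 5.67-fold), the G protein gamma subunit Gngt2 (5.63-fold and 5.54-fold) and the lysosomal lipid-transfer protein Gm2a (4.90-fold and 4.54-fold) followed. The chemokine receptor Cxcr4, which rises as neutrophils age, was at 705 against 137 CPM in the Tet2-/- and at 597 against 154 CPM in the Tet2+/+ library.

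Of the genes furthest below, Ly6g, the surface protein used to identify mouse neutrophils, was at 21.3 CPM in Tet2-/- members, against 512 CPM in Retnlg-dominated cells, and at 36.2 CPM in Tet2+/+ members, against 517 CPM, or 24.0-fold (14–45.1) and 14.3-fold (11.2–18.5) lower. Cd177, a surface protein of neutrophils that binds proteinase 3, was 13.2-fold and 10.0-fold lower, and Ly6c2 11.6-fold and 10.6-fold. Adpgk, the ADP-dependent glucokinase, was 16.5-fold and 11.8-fold lower. Lysozyme Lyz2 was at 1189 against 7201 CPM in the Tet2-/- library and at 1533 against 6339 CPM in the Tet2+/+ library. Cybb, the membrane subunit of the NADPH oxidase, was 5.72-fold and 4.76-fold lower, and Wfdc21, a secreted antiprotease-like protein, 5.64-fold and 4.98-fold. Of 9 markers of mature neutrophils outside the rule, 3 were higher and 3 lower than in Retnlg-dominated cells, and 0 were higher and 3 lower with TMM. Against Cxcl2-dominated cells 0 of these 9 were higher and 3 lower, with a median log2 ratio of -0.40. With TMM 0 were higher and 5 lower there.

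By pathway list, many G-CSF receptor genes were higher in members, but only some by more than the shift. Of 17 genes over the minimum, 9 were higher and none lower, with a median log2 ratio of 0.61 against 0.33 over all 2401 genes, each gene entered with the smaller ratio of both libraries, or 0 where these differed in sign. With TMM 2 of the 17 were higher and the median was 0.00, against -0.07 over all genes. The kinase Jak2 was 3.67-fold and 3.28-fold higher, the inhibitor Socs3 2.69-fold and 2.60-fold, and the survival kinase Pim1 2.18-fold and 2.36-fold. Of 19 genes of CXCR2 signalling and desensitisation, 3 were higher and 1 lower, and the median of 0.10 turned to -0.38 with TMM. Rgs2, a brake on G protein signalling, was 2.09-fold and 2.12-fold higher, while its relative Rgs18 was at 0.362 and 0.460 of the Retnlg-dominated level.

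Among 18 cytokine receptors besides Csf3r, 13 were higher in members, such as the interleukin 1 receptor accessory protein Il1rap (4.26-fold and 4.09-fold) and the interleukin 4 receptor Il4ra (2.51-fold and 2.62-fold), and 3 of the 18 were higher with TMM. Of 9 chemoattractant receptors besides Cxcr2, 4 were higher and 2 lower. The atypical receptor Ccrl2 was 3.83-fold and 4.58-fold higher, and the formyl peptide receptors Fpr1 (0.415 and 0.487 of the Retnlg-dominated level) and Fpr2 (0.442 and 0.453) were the lower ones. Cxcr4 (log2 ratios of 1.70 and 1.24), Ccrl2 (1.30 and 1.48) and Il1rap (1.24 and 1.22) stayed higher with TMM, and the median of the chemoattractant receptors was 0.53 by CPM and 0.00 with TMM.

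Immediate early genes, which cells switch on within minutes of a stimulus, were higher in 17 of 18 cases with a median of 0.98, and in 6 of 18 with a median of 0.34 with TMM. The mitogen-induced factors Egr1 (3.69-fold and 3.63-fold) and Jun (3.76-fold and 3.54-fold) are examples. Of 14 genes of NF-kB subunits, inhibitors and targets 9 were higher (3 with TMM), with the adhesion molecule Icam1 at 7.85-fold and 6.40-fold. Of 14 survival and apoptosis genes 9 were higher (6 with TMM), with the pro-apoptotic Pmaip1 at 8.14-fold and 5.49-fold and the anti-apoptotic Bcl2a1b at 4.03-fold and 4.74-fold. Bcl2a1b has near-identical paralogs, so its count is uncertain. Tertiary granule and adhesion genes outside the rule had 3 of 20 higher and 7 lower with a median of -0.23, and 1 higher and 14 lower with TMM. Of 15 glycolysis genes, the glucose transporter Slc2a3, the hexokinase Hk3 and the isomerase Gpi1 were lower and none higher (8 lower with TMM). Of 10 cytokine and chemokine genes outside the rule, 6 were higher and 0 lower with a median of 0.91. With TMM 4 of these were higher and 2 lower. Of 11 interferon-stimulated genes outside the rule 7 were higher and 0 lower with a median of 0.68, and 2 higher and 2 lower with TMM. Il1b, the interleukin 1 gene most abundant in neutrophils, was 2.92-fold and 2.88-fold higher in members.

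The Cxcl2-dominated cells were the closer state. Of 2348 genes, 22 (0.937%) were at least 1.5-fold higher in members in both libraries and 59 (2.51%) lower. Over all members and Cxcl2-dominated cells, 50 (2.09%) of 2392 genes were higher and 73 (3.05%) lower, and scaling by TMM made this 8 higher and 167 lower, median-of-ratios scaling 8 and 154. The median gene was 0.27 higher on the log2 scale in Tet2-/- members and 0.17 higher in Tet2+/+ members, and with TMM and without mixed cells no gene was called higher. Calls of higher genes against this state thus rest on CPM scaling.

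Of 13 cytokine and chemokine genes besides Cxcl2 and Cxcl3, which the rule used, 6 were lower in members than in Cxcl2-dominated cells and 0 higher, with a median of -0.58, and 7 were lower with TMM. Ccl3, a chemokine for monocytes and neutrophils, was at 107 CPM in Tet2-/- members, against 1430 CPM, and at 182 CPM in Tet2+/+ members, against 1008 CPM, or 13.4-fold and 5.54-fold lower. Spp1, which encodes osteopontin, was 7.49-fold and 8.6-fold lower. Il1a was at 9.84 against 205 CPM in the Tet2-/- and at 37.3 against 181 CPM in the Tet2+/+ library. The chemokine Ccl4 was 5.09-fold and 4.0-fold lower, the interleukin 1 receptor antagonist Il1rn 3.10-fold and 2.94-fold, and the endotoxin co-receptor Cd14 2.76-fold and 3.35-fold. Thrombospondin Thbs1 (2.72-fold and 2.54-fold), the itaconate-making enzyme Acod1 (3.04-fold and 2.49-fold), the receptor Mrgpra2b of the Mas-related family (4.01-fold and 2.40-fold) and the transcriptional regulator Ifrd1 (2.54-fold and 2.30-fold) were also lower. Il1b was at 0.927 of the Cxcl2-dominated level in Tet2-/- members and 0.837 in Tet2+/+ members.

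The higher genes against the Cxcl2-dominated state were few and small. Rgs2 was at 950 against 490 CPM in the Tet2-/- and at 829 against 491 CPM in the Tet2+/+ library, 1.94-fold and 1.69-fold higher. Arrdc3, an arrestin-domain protein that guides receptors to degradation, was 2.36-fold and 1.67-fold higher. The interferon-inducible Slfn5 was 2.70-fold and 1.61-fold higher, Itga4 2.09-fold and 1.57-fold, and the calcium-responsive factor Nfatc1 1.84-fold and 1.66-fold. Of the label genes, Slc40a1 was 2.13-fold and 1.58-fold higher and Fgl2 1.42-fold and 1.24-fold. Csf3r, 1.75-fold and 1.54-fold higher, and Cxcr2, 1.56-fold and 1.51-fold higher, again describe the choice of members. Steap4 was at 0.916 (0.627–1.30) of the Cxcl2-dominated level in Tet2-/- members and 1.19 (1.06–1.34) in Tet2+/+ members, so it set members apart from the Retnlg-dominated cells but hardly from the Cxcl2-dominated ones. None of 17 G-CSF receptor genes and 1 of 18 CXCR2 signalling genes, Rgs2, was called, with medians of 0.19 and 0.25 against 0.14 over all genes and of 0.00 for both lists with TMM.

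**Figure D4:**
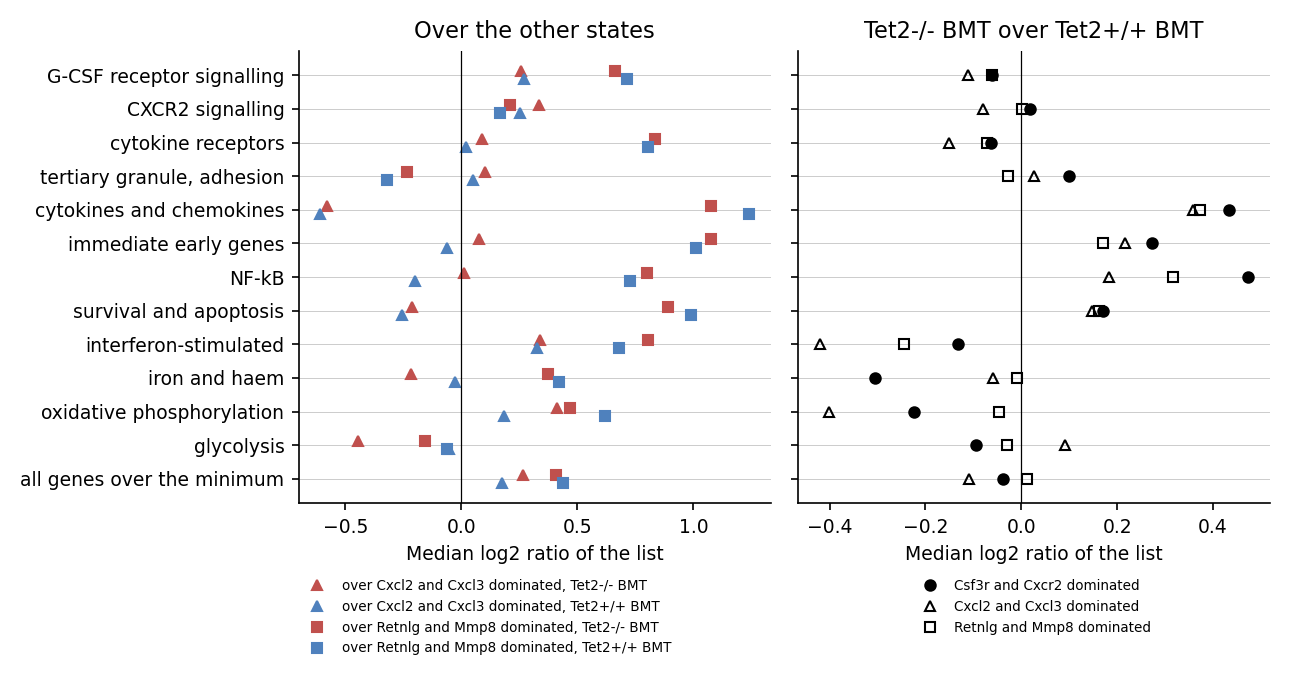
Median log2 ratio of each gene list, without mixed cells and without genes the rule used. The left panel sets members over Retnlg-dominated (squares) and Cxcl2-dominated (triangles) cells for Tet2-/- (red) and Tet2+/+ (blue), and the right panel sets Tet2-/- over Tet2+/+ within each state. The immediate early and cytokine lists stand high over Retnlg-dominated cells, and the cytokine list stands low over Cxcl2-dominated cells. The medians between libraries lie between -0.42 and 0.47 (the highest is NF-kB in members).

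Between the libraries, 4 of 15 NF-kB and 4 of 19 immediate early genes were higher in Tet2-/- than in Tet2+/+ members and 0 lower, and Steap4, Oasl2 and haptoglobin were lower. Of 2629 genes over the minimum, 63 (2.4%) were at least 1.5-fold higher in Tet2-/- members and 145 (5.52%) lower, 208 (7.91%) in all. The lower ones include 2 Y-linked genes, which mark the sex of the cells. Over all members the counts were 160 (5.77%) higher and 183 (6.6%) lower of 2773, and the highest genes there were those of the mixed cells. Chil3, a chitinase-like protein of myeloid precursors, led with a log2 ratio of 3.22 over all members, but 93.3% of its 655 Tet2-/- member UMIs lay in the mixed cells, and without them it was -0.18. In the other states the counts, also without mixed cells, were 66 (2.85%) higher and 105 (4.53%) lower among Cxcl2-dominated cells and 36 (1.74%) and 35 (1.69%) among Retnlg-dominated cells. With TMM the 63 and 145 genes became 108 and 109, so the balance between higher and lower genes depends on the scaling. Whether the states differ in number of called genes was not tested, and members are the smallest and shallowest of them.

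The lowest genes of Tet2-/- members besides Steap4 were mostly low in level. Scimp, an adaptor of Toll-like receptor signalling, was at 13.1 CPM from 8 UMIs in Tet2-/- members and at 85.0 CPM from 155 UMIs in Tet2+/+ members (log2 ratio -2.04). Oasl2, an interferon-inducible relative of the 2′-5′ oligoadenylate synthetases, was at 103 CPM (79.4–132) and 307 CPM (282–333), a ratio of 0.337 (0.255–0.437). It was lower in the other states as well, by log2 ratios of -1.24 in Cxcl2-dominated and -1.50 in Retnlg-dominated cells, and so was Steap4 (-1.74 in members, -1.40 and -1.38 in those states). The G protein regulators Rgs10 (18.0 and 83.9 CPM) and Rgs1 (55.8 and 135 CPM), the ectonucleotidase Entpd3 (14.8 and 64.1 CPM), the sodium channel subunit Scnn1a (26.2 and 83.3 CPM) and the membrane-anchored metalloproteinase Mmp25 (14.8 and 50.4 CPM) were also lower in Tet2-/- members. So were Oser1 (37.7 and 104 CPM), Swap70 (16.4 and 53.2 CPM), Cpsf6 (16.4 and 52.6 CPM) and the leukotriene synthase Ltc4s (16.4 and 52.1 CPM). Ccl5 was at 14.8 and 89.3 CPM, with 65.6% of its Tet2+/+ UMIs in 1 cell. Haptoglobin (Hp), an acute-phase protein stored in neutrophil granules, was the most abundant of the lower genes named, at 881 CPM (808–959) and 1779 CPM (1718–1841).

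The higher genes of Tet2-/- members included several that follow cell stimulation. Dusp2, a nuclear phosphatase of MAP kinases, was at 323 CPM (280–372) in Tet2-/- and 112 CPM (97.5–129) in Tet2+/+ members, 2.88-fold (2.35–3.51) higher. The MAP kinase phosphatase Dusp5 was at 410 and 180 CPM, and Fosb, a subunit of AP-1, at 796 and 383 CPM, 2.08-fold (1.85–2.34) higher. Asprv1, a retroviral-like aspartic protease, was 2.76-fold (2.33–3.26) higher at 446 and 162 CPM, and was higher in the Cxcl2-dominated (log2 ratio 1.35) and Retnlg-dominated (1.22) states too. Rilpl2 (149 and 63.6 CPM), the chaperone Hspa4l (189 and 83.9 CPM), the TNF receptor adaptor Traf1 (88.6 and 36.7 CPM) and the integrin chain Itgb7 (80.4 and 33.4 CPM) were higher as well. For the other 4 of the 12 highest the UMIs were concentrated in single cells, with 91.4% of the Tet2-/- UMIs of Stfa1, 50% of Obp2a, 46.7% of Wfdc18 and 24.6% of Obp1a in 1 cell.

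**Figure D5:**
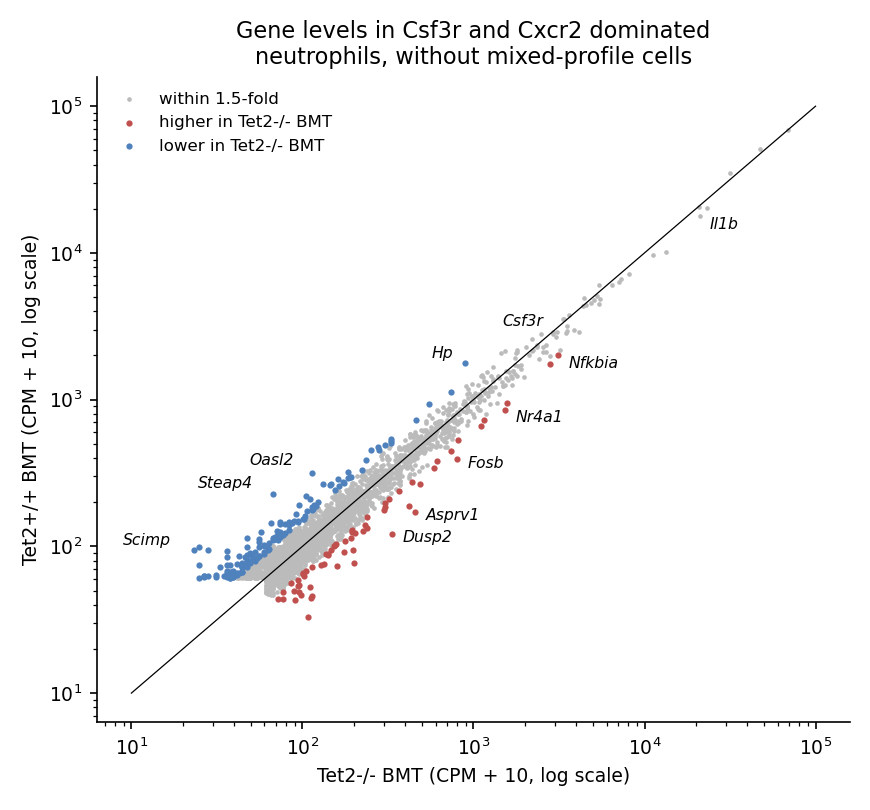
Each point is 1 of the genes over the minimum, placed by its level in Tet2-/- (horizontal axis) and Tet2+/+ members (vertical axis) as CPM plus 10 on log scales, without mixed cells. Coloured points are past 1.5-fold, higher (red) or lower (blue) in Tet2-/- members. Over all genes past the minimum, Y-linked ones included, 63 were higher and 145 lower. Steap4, Oasl2 and Scimp lie furthest above the diagonal among the genes named in the plot.

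By list, 4 of 15 NF-kB genes were higher in Tet2-/- members and 0 lower, with a median log2 ratio of 0.47 against -0.04 over all genes (7 higher and a median of 0.54 with TMM). They included the feedback inhibitors Nfkbia, at 3123 CPM in Tet2-/- and 1992 CPM in Tet2+/+ members, and Tnfaip3, at 477 and 257 CPM, and also Icam1 (123 and 65.8 CPM). The median was 0.18 in Cxcl2-dominated and 0.32 in Retnlg-dominated cells. Of 19 immediate early genes 4 were higher and 0 lower (median 0.27), among them Nr4a1, an orphan nuclear receptor, at 1529 and 841 CPM, and Egr3, at 85.3 and 44.9 CPM. All 3 stefin A genes over the minimum were higher, with Stfa2l1 at 1560 and 932 CPM and Cstdc4 at 727 and 435 CPM, but these near-identical cysteine protease inhibitors share reads and their single counts are uncertain. Stfa1, the other of the 3, rested on 1 cell as given above. Of 19 tertiary granule and adhesion genes outside the rule, Icam1 was higher and Hp and Mmp25 were lower.

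For the pathways of the receptors that define the state, counts are to be read against the 7.91% of all 2629 genes called either way between the libraries. Few calls in such short lists are therefore not particular to these pathways. None of 17 G-CSF receptor genes was past 1.5-fold, with a median of -0.06 that turned to 0.01 with TMM, and Jak2 was at 136 and 121 CPM. Of 18 CXCR2 signalling genes 1, Rgs1, was lower (median 0.02). Of 18 cytokine receptors outside the rule 1, Il1rap, was lower (103 and 176 CPM), and of 9 chemoattractant receptors outside the rule none was called. Of 11 cytokines, chemokines and related genes outside the rule, Ptgs2 was higher and Ccl3 lower, with a median of 0.43, and with TMM 4 were higher and 1 lower. The other states had similar medians for this list. It was 0.36 in Cxcl2-dominated cells, with 5 of 14 higher and 1 lower, and 0.37 in Retnlg-dominated cells, with 3 of 10 higher and 0 lower. Il1b was 1.18-fold (1.16–1.21) higher at 20982 and 17760 CPM. Ptgs2, the inducible prostaglandin synthase, was at 2785 and 1734 CPM and Ccl3 at 107 and 182 CPM. Of 11 interferon-stimulated genes outside the rule 1, Oasl2, was lower and 0 higher (median -0.13), in cells whose Ifit1, Ifit3, Rsad2 and Isg15 counts the rule had capped. In Cxcl2-dominated cells 4 of 10 such genes were lower and 0 higher (median -0.42). In Retnlg-dominated cells 2 of 6 were lower and 0 higher (median -0.24). Of 20 oxidative phosphorylation genes 4 were lower and 0 higher (median -0.22), of 10 iron and haem genes 1, Steap4, was lower (median -0.31), and of 16 glycolysis genes Ldha and Hk2 were lower, though not with TMM.

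The sex of the cells differed with the group. The same ratios were also taken between the 29 Tet2-/- members with Xist only and the 266 Tet2+/+ members with Y-linked transcripts only, mixed cells left out. Sex and group differ together in all of these cells, so this comparison cannot tell them apart. There Steap4 was at a log2 ratio of -2.12, Scimp at -2.12, Oasl2 at -1.81, Fosb at 1.51, Dusp5 at 0.96 and Dusp2 at 0.95. Asprv1 turned to -1.27. The medians of the NF-kB and immediate early lists were 0.11 and 0.16, and that of the stefin A genes 1.15. Cells of the same sex could not be compared between the libraries, since 9 Tet2-/- members had Y-linked transcripts without Xist and 0 Tet2+/+ members had Xist only. Free RNA was estimated to give at most 43.6% of Tet2-/- and 19.8% of Tet2+/+ member UMIs. With that estimate subtracted over all members, Steap4 was at a log2 ratio of -1.82, Oasl2 at -1.68, Fosb at 1.03 and Dusp2 at 1.58.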

How the data were processed

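Droplet 3′ single-cell RNA-seq (10x Chromium) of sorted gingival CD11b+ cells gave 1 library per group. Per the submitters' processing notes, the authors used Cell Ranger 6.1.2 and the mm10 build and deposited raw UMI counts per gene and barcode, empty droplets included. Aligner settings and the animals behind each library are not given in the sources used here.

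From the deposited counts, cells were kept and members chosen by the thresholds in the report. The members, gene lists and named genes were chosen with earlier results of these data known. UMIs were summed over cells per library and state, scaled to CPM (counts over the summed UMIs of the same cells), and compared as log2 ratios of CPM plus 10. Genes needed 50 CPM in either side and 100 UMIs over both, and a gene was called at 1.5-fold, in both libraries for contrasts between states. No test was possible with 1 library per group. Intervals are exact 95% intervals (Poisson for levels, Clopper-Pearson for shares, conditional binomial for ratios) and cover counting error only, since cells of 1 library are not replicates. A cell of mixed profile had 1% or more of its UMIs from Elane, Mpo, Prtn3 and Ctsg or from 1 marker list of another lineage, a rule added after seeing the data, with its set of lists revised once. Doublets were not removed. Scrublet (in scanpy 1.11.5) marked 0 Tet2-/- and 346 Tet2+/+ cells, so its call did not work in the first library. Free RNA was estimated from barcodes of 1 to 50 UMIs.

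Named genes were the 12 highest and 12 lowest past 1.5-fold between libraries, and the 10 highest and 10 lowest in both libraries between states, genes of the rule and ribosomal, mitochondrial, haemoglobin, immunoglobulin, T cell receptor, sex-linked and unnamed models left out, plus the label genes, Tet2, Il1b and up to 4 called genes of each list. The ranking was taken with and without mixed cells. Positions come from GENCODE M21 (mm10), which matched 32158 of 32285 gene identifiers. Promoters come from RefSeq for GRCm38.p6, which held 4 of the 5 label genes. Alternatives covered the depth, mitochondrial and gate thresholds, thinning to 1000 UMIs, per-cell CPM, scaling (TMM, median of ratios), pseudocount, gene minimum, free RNA, doublets and cells chosen by Xist or Y-linked transcripts. Counting was checked on simulated data. Python 3.11.15, numpy 2.4.6, scipy 1.17.1, pandas 2.3.3 and matplotlib 3.10.9 were used.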

Additional observations from a re-analysis of the deposited data

Results flagged for a closer look

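Wfdc18, a small secreted protein with a whey acidic protein domain, went opposite ways in the libraries between members and Retnlg-dominated cells. Without mixed cells it was at 98.4 CPM in Tet2-/- members, against 20.7 CPM in Retnlg-dominated cells of that library, a log2 ratio of 1.82. In the Tet2+/+ library it was at 23 CPM in members, against 310.5 CPM in Retnlg-dominated cells, a log2 ratio of -3.28. The difference was not tested, and 1 cell held 46.7% of the UMIs of Wfdc18 in Tet2-/- members.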

How the results depend on the processing

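With cells thinned to 1000 UMIs, where more cells passed the gate, the ratio of the shares of kept cells was 0.358, against 0.431. Its other alternatives gave 0.417–0.438. Free RNA was estimated for groups of cells already chosen, so no share of members with free RNA removed is given. The count of genes past 1.5-fold between Tet2-/- and Tet2+/+ members, 343 over all members, became 142 with thinning, 220 with the mean of per-cell CPM, 920 with a gene minimum of 10 CPM and 20 UMIs, 1147 between Xist-carrying Tet2-/- and Y-carrying Tet2+/+ members (35 against 272 cells), 208 without mixed cells, 201 without the primary granule cells, and, without mixed cells, 217 with TMM and 222 with per-cell CPM. The 123 genes past 1.5-fold over Cxcl2-dominated cells became 198 with the lower gene minimum, 242 with free RNA subtracted, 81 without mixed cells and 75 without the primary granule cells. The 881 over Retnlg-dominated cells became 437 with thinning, 1755 with the lower gene minimum and 532 without mixed cells with TMM.

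The genes highest in Tet2-/- members when all members are counted turned round when the primary granule cells were left out. Elane and Prtn3 are among the genes that defined the primary granule cells, so their fall follows from that choice and is not a separate result. Without those cells Chil3 was at -0.19 on the log2 scale, Hist1h2ap -0.13, Hist1h2ae -0.41, Stmn1 -0.18, Serpinb1a -0.39, Hist1h1b -0.24, Elane -0.32, Prtn3 -0.44, Dut -0.17 and Ly6c2 -0.083. Without all mixed cells Chil3 was at -0.18, Hist1h2ap -0.16, Hist1h2ae -0.77, Stmn1 -0.14, Serpinb1a -0.36, Hist1h1b -0.97, Elane -0.32, Prtn3 -0.44 and Dut -0.17. With TMM as well, Chil3 was at -0.12, Hist1h2ap -0.10, Hist1h2ae -0.75, Stmn1 -0.11, Serpinb1a -0.31, Hist1h1b -0.93, Elane -0.28, Prtn3 -0.38 and Dut -0.15, and with per-cell CPM Chil3 was at -0.053, Hist1h2ap -0.0025, Hist1h2ae -0.65, Stmn1 -0.18, Serpinb1a -0.46, Hist1h1b -0.81, Elane -0.54, Prtn3 -0.36 and Dut -0.29. Between Xist-carrying and Y-carrying members without mixed cells, Chil3 was at -0.42, Hist1h2ae -0.89, Pclaf -0.15, Stmn1 -0.62, Hist1h1b -0.45, Elane -1.38, Prtn3 -1.83, Dut -0.62, Wfdc18 -0.75 and Asprv1 -1.27. With mixed cells in, Wfdc18 was at -0.59, Dusp2 -0.24, Asprv1 -2.38, Obp2a -0.68, Dusp5 -0.25, Traf1 -0.36, Obp1a -0.53 and Itgb7 -0.13. Thinning turned Hist1h2ae to -1.22 and Hist1h1b to -0.42, and subtracting free RNA turned Obp1a to -0.36. The mixed cells hold most UMIs of the precursor genes; for the others the cause was not tested.

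Over all settings, values of named genes between libraries stayed within their counting interval 614 times, moved beyond it 183 times and reversed 58 times. Medians of gene lists between libraries stayed within 0.2 of the value over all members 378 times and moved further 116 times. Without mixed cells 12 list medians moved and 14 did not, and between Xist-carrying and Y-carrying members, mixed cells in, 22 moved and 4 did not. Between states, the values of named genes stayed within 0.2 on the log2 scale 568 times and moved further 248 times. None was counted as reversed, but this needed a ratio past 1.5-fold to change sign in both libraries. A ratio that differed in sign between the libraries was set to 0, and smaller ratios that changed sign were not counted. A comparison of Y-carrying cells of both libraries was not run, with 9 against 272 cells. No paired analysis was possible because each group has 1 library. With 192 Tet2-/- members, single cells can carry much of a low gene's sum, as for Wfdc18.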
